A study of Mus musculus with 32 samples.

Results

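Resident Kupffer cells, the macrophages that live in the sinusoids of the liver, are recognised by a small set of genes, of which 10 are described here: *Clec4f*, *Timd4*, *Vsig4*, *Cd5l*, *Marco*, *Adgre1*, *C6*, *Folr2*, *Cd163* and *Csf1r*. They were taken by gene name from a table of 54532 genes. The rule holds no measured value, but the set was chosen with earlier results of these data known, so the number of its genes called is not free of that choice. Liver RNA was sequenced from 32 mice on a C57BL/6 background, killed at 12 weeks of age, with 4 mice in each of 8 groups. The groups were female and male WT mice and female and male *Cyp2c70*-/- (KO) mice, each fed either chow or chow with 0.006% SC-435, a dose of about 11 mg/kg/day. SC-435 blocks IBAT, the transporter that takes up bile acids in the ileum, and Cyp2c70 is the liver enzyme with which mice make muricholic acids. All KO mice carry a germline deletion of *Cyp2c70* exon 2 that goes back to 1 founder, so the gene is lost in every tissue and a change in Kupffer cells cannot be assigned to the loss in any 1 cell type. The comparisons ask how the deletion, the inhibitor and both together alter the RNA of these genes, in each sex.

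Kupffer cells are seeded before birth and renew themselves in the liver, where they depend on colony-stimulating factor through its receptor *Csf1r* and on signals from neighbouring endothelial and stellate cells. They clear particles, dying cells and free haemoglobin from the blood. When they are lost, monocytes from the blood enter the niche and acquire the resident genes stepwise, *Clec4f* early and *Timd4* late, so the balance between the resident genes and genes shared by all macrophages is often used to describe the state of the niche.

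Promoter sequence is shown because 7 of these genes rose together in female KO mice while *Cd163* fell. Sequences were taken from RefSeq (GRCm38.p6, the build of the deposited coordinates) for 8 of the 10 genes, and 5 are printed as the 170 bases on the gene's own strand before its start. Capitals mark the core of the motif of PU.1, the myeloid lineage factor encoded by *Spi1* (GAGGAA), and the short site bound by the MAF factors (TGCTGA), each searched on both strands. *Vsig4* (chrX:96293439-96293608, minus strand), *Marco* (chr1:120505025-120505194, minus strand) and *Cd5l* (chr3:87357711-87357880, plus strand) are shown as genes that rose, *Cd163* (chr6:124304481-124304650, plus strand) as the gene that fell, and *Clec4f* (chr6:83656188-83656357, minus strand) as the marker most restricted to Kupffer cells.
Vsig4: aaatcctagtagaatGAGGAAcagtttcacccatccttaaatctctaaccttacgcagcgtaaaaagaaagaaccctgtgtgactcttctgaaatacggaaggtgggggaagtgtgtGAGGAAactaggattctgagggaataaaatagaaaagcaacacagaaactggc
Marco: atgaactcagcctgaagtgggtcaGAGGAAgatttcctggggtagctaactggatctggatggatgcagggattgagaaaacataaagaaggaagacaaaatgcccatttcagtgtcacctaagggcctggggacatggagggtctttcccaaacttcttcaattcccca
Cd5l: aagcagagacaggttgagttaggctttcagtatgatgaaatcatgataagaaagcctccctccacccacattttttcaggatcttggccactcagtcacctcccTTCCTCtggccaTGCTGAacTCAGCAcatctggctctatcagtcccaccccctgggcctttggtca
Cd163: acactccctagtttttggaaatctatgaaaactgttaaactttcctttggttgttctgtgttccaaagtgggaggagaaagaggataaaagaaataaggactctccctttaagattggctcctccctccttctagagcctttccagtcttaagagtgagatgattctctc
Clec4f: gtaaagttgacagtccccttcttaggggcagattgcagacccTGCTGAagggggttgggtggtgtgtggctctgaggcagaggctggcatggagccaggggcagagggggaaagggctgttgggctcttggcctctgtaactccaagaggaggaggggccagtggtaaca
The PU.1 core was present in 3 of the 8 windows, those of *Vsig4* (2 matches), *Marco* and *Cd5l* (1 match each), and in 16.24% of 32843 RefSeq windows of the same length. The MAF site was present in 3 of 8 windows, those of *Clec4f* (1 match), *Timd4* and *Cd5l* (2 matches each), and in 11.35% of all windows. The windows of *Cd163*, *C6* and *Folr2* held neither set of letters, and *C6* and *Folr2*, which also rose, are not printed. The 3 printed genes that rose are the 3 with a PU.1 core, so the printed windows do not compare genes that rose with *Cd163*. *Adgre1* had no usable entry and *Csf1r* was left out, although both rose. The matches describe the bases of these windows only.

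Libraries held between 36476021 and 44771350 counted reads. Each of the 10 genes had at least 61 counts in every library, so none was near the limit of detection. Levels are given as CPM, read counts scaled to library size with TMM factors. *Cyp2c70* lay between 109 and 188 CPM in the 16 KO mice and between 271 and 838 CPM in the 16 WT mice, so the libraries carried the genotype of their labels, although reads were counted over the whole gene and not over the deleted exon alone. A pair of male libraries stood apart. Male WT replicate 1 on chow had a TMM factor of 0.622 and a mean correlation of 0.918 with the others of its group, and male KO replicate 4 on chow was the highest of its group for 9 of the 10 genes. In whole-liver RNA, fewer or more Kupffer cells and less or more RNA per cell cannot be told apart.

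In WT females on chow, *Clec4f* and *Cd5l* were the most abundant of the 10 transcripts. Because transcripts differ in length, levels are compared between genes per kilobase. *Clec4f*, a C-type lectin receptor, was at 51.7 ± 3.7 CPM per kilobase (SD, n = 4) and *Cd5l*, a secreted protein that protects macrophages from apoptosis, at 47.4 ± 4.9 CPM per kilobase, and the ranges of the pair overlapped. *Vsig4*, the complement receptor CRIg, followed at 19.4 ± 0.89 CPM per kilobase and *Csf1r* at 13.5 ± 0.59 CPM per kilobase, each separated from its neighbours in the order. Below them came *C6* (7.41), *Adgre1* (6.41), *Cd163* (4.45), *Timd4* (3.36), *Marco* (3.29) and *Folr2* (1.82 CPM per kilobase), in which *Adgre1* lay above *Cd163* and *Marco* above *Folr2* without overlap, while the ranges of the other neighbours overlapped. In WT males on chow *C6*, a component of the terminal complement complex that hepatocytes also secrete, stood first at 104 ± 19 CPM per kilobase and was separated from *Cd5l* (52.0) and *Clec4f* (44.9). *Csf1r* (14.4) followed below them without overlap, and from *Csf1r* down to *Folr2* (1.74) all neighbours overlapped.

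**Figure D1:**
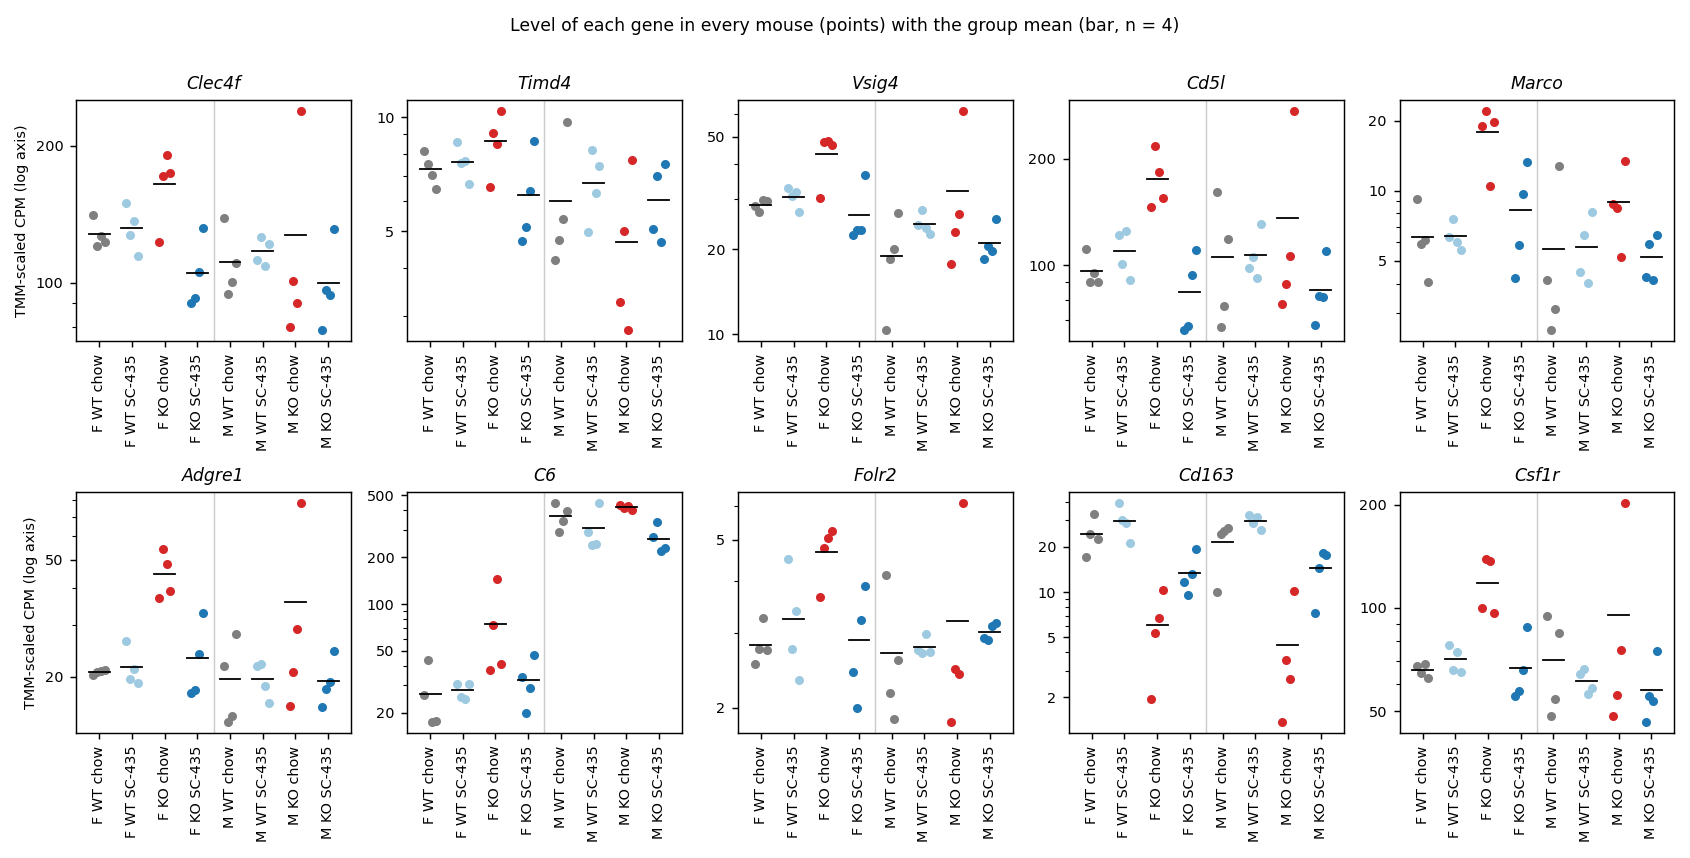
Level of the 10 genes in each mouse as TMM-scaled CPM on a log axis, with points for the 4 mice of a group and a bar for the group mean (F, female; M, male). In females on chow the KO mice lie above the WT mice for *Adgre1*, *Marco*, *Cd5l*, *Csf1r*, *Vsig4* and *Folr2* and below them for *Cd163*, and the highest male KO value is 1 mouse (*Clec4f* at 238 CPM, the next at 101).

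Loss of *Cyp2c70* raised most of the resident genes in females on chow and lowered 1 of them. By the quasi-likelihood test of edgeR, with p-values adjusted after Benjamini and Hochberg over the 16205 genes tested (adjusted p under 0.05), 7 of the 10 genes were higher in KO than in WT livers and 1 was lower, where 9.83% of all genes tested were called higher and 5.05% lower. Their median log2 fold change was 0.78, against -0.02 over all genes tested. *Adgre1*, *Marco*, *C6*, *Cd5l*, *Csf1r*, *Folr2* and *Vsig4* rose, *Cd163* fell, and *Clec4f* and *Timd4*, the pair most restricted to resident cells, did not pass the test.

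*Adgre1*, which encodes the F4/80 antigen used to stain mouse macrophages, showed the tightest separation. WT females on chow were at 20.3, 20.8, 20.9 and 21.1 CPM and KO females at 37.0, 54.2, 48.4 and 39.2 CPM. Every KO mouse was above every WT mouse, and the log2 fold change was 1.10 (SE 0.12, edgeR adjusted p = 0.00144). *Csf1r*, the receptor on which macrophage survival depends, was at 62.4 to 68.7 CPM in WT and 96.6 to 139 CPM in KO females, again without overlap (log2 fold change 0.84, SE 0.13, edgeR adjusted p = 0.00409).

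Among the receptors for particles and complement, *Marco*, a scavenger receptor for bacteria and debris, was at 9.21, 5.90, 6.14 and 4.06 CPM in WT and at 19.0, 21.9, 10.5 and 19.8 CPM in KO females. The lowest KO mouse was just above the highest WT mouse, and the log2 fold change was 1.48 (SE 0.27, edgeR adjusted p = 0.00729). *Vsig4* was at 28.4, 27.0, 29.9 and 29.6 CPM in WT and at 30.4, 47.8, 48.1 and 46.8 CPM in KO females. KO replicate 1 lay at the upper edge of the WT range and the other KO mice well above it, with a log2 fold change of 0.58 (SE 0.14, edgeR adjusted p = 0.0211). The call of *Vsig4* was lost without WT replicate 2 or KO replicates 2 or 3, at adjusted p between 0.0541 and 0.0643.

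*Cd5l* was at 111, 89.9, 95.5 and 89.7 CPM in WT and 146, 216, 183 and 155 CPM in KO females, without overlap (log2 fold change 0.85, SE 0.14, edgeR adjusted p = 0.00441). *Folr2*, a folate receptor of tissue-resident macrophages, was the scarcest of the set and rose from 2.53 to 3.25 CPM in WT to 3.66 to 5.24 CPM in KO females (log2 fold change 0.72, SE 0.16, edgeR adjusted p = 0.0156). It overlaps the antisense gene *Gm10602*, which had at most 75 counts where *Folr2* had at least 76, and whether the counting used strand is not given in the sources used here. *Csf1r*, with at least 1768 counts, overlaps the opposite-strand gene *Hmgxb3*, which had at most 1102 counts, and the same limit holds there.

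*C6* was at 26.2, 44.0, 17.5 and 17.7 CPM in WT and 37.8, 73.8, 144 and 41.2 CPM in KO females. KO replicate 3 was far above the rest, the groups overlapped, and the log2 fold change of 1.48 (SE 0.44) passed the edgeR test narrowly (adjusted p = 0.0477). That call was lost in 5 of the 8 fits that left out 1 library, those without WT replicates 1, 3 or 4 or KO replicates 2 or 3, at adjusted p between 0.0996 and 0.119 (edgeR). Without KO replicate 3 the log2 fold change was 0.96.

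*Clec4f* was at 141, 121, 126 and 123 CPM in WT and 123, 172, 191 and 174 CPM in KO females. KO replicates 2 to 4 lay above all WT mice and replicate 1 within them, so the groups overlapped and the log2 fold change was 0.36 (SE 0.14, edgeR adjusted p = 0.104). Without KO replicate 1 it passed (log2 fold change 0.49, edgeR adjusted p = 0.0177), as it did with voom (adjusted p = 0.0252) and with scaling by total counts (adjusted p = 0.0129). *Timd4*, the phosphatidylserine receptor by which Kupffer cells take up dying cells, was at 8.15, 7.54, 7.04 and 6.48 CPM in WT and 6.56, 9.10, 8.49 and 10.4 CPM in KO females, with a log2 fold change of 0.23 (SE 0.15, edgeR adjusted p = 0.336). It passed in none of the 16 alternatives tried for this comparison.

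*Cd163*, the receptor that clears haptoglobin-bound haemoglobin, went the other way. WT females on chow were at 17.2, 24.4, 33.1 and 22.4 CPM and KO females at 1.95, 5.37, 6.78 and 10.3 CPM. All KO mice were below all WT mice, and the log2 fold change was -2.01 (SE 0.40, edgeR adjusted p = 0.00949). Leaving out 1 library at a time kept it between -2.36 and -1.70, and it passed in every such fit. None of the 5 erythroid genes of red blood cells passed the same test (median log2 fold change -0.26). Their sums spread from 22.6 to 107 CPM in WT and from 23.1 to 84.4 CPM in KO females, so a difference could be missed. Their part in the fall of *Cd163* was not tested.

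Genes that macrophages share were higher in the same female KO livers. All 12 general macrophage genes rose, with a median log2 fold change of 1.14, led by *Cd14* (2.40) and *Lyz2* (1.49), and their summed level ranged from 292 to 379 CPM in WT and from 557 to 941 CPM in KO females. Of the 12 monocyte-derived and lipid-associated macrophage genes that could be tested, 10 rose, led by *Gpnmb* (log2 fold change 7.27) and *Mmp12* (5.45). Their sums ranged from 37.6 to 70.5 CPM in WT and from 94.7 to 228 CPM in KO females. In WT females on chow *Gpnmb* averaged 0.116 CPM and *Mmp12* 0.305 CPM, so the size of these 2 fold changes rests on values near the floor. *Gpnmb* did not pass the filter on low counts in the female comparisons without the KO mice on chow. Each gene of that list had more than 3 counts in at least 1 library, although *Ly6c2*, *Itgam* and *Chil3* averaged under 1 CPM. In WT females on chow *Chil3* averaged 0.0431 CPM, and *Trem2* (0.743 CPM) and *Cx3cr1* (0.745 CPM) were also under 1 CPM. The part of such cells in the rise of *Adgre1*, *Csf1r* and the other resident genes was not tested.

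Other cell types moved as well. Of the cholangiocyte genes 5 of 7 tested were higher, and of the hepatocyte genes 5 of 8 were lower and 1 higher (edgeR). Of the 6 neutrophil genes only 3 passed the filter on low counts, and those 3 were higher. On average 5 of the 6 were under 1 CPM. *S100a8* did not pass that filter in the female comparisons without the KO mice on chow, so this count depends on the filter. Changes were called by edgeR in 0 of 11 sinusoidal endothelial, 0 of 4 B cell, 1 of 5 T cell and 1 of 7 stellate cell genes. The T cell gene was *Cd8a* and the stellate cell gene *Pdgfrb*. DESeq2 called 8 of the resident genes in this comparison and voom 9. Of all calls 66.07% were higher in KO with TMM scaling and 90.84% with scaling by total counts.

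Other genes of Kupffer cells and their niche were counted in the same comparison. Of 11 other Kupffer cell genes, 4 rose and 1 fell in female KO mice on chow, with a median log2 fold change of 0.39. *Spic*, the factor of iron-recycling macrophages, rose the most (log2 fold change 1.16, SE 0.22, edgeR adjusted p = 0.00860), followed by *Hmox1*, haem oxygenase (0.49, SE 0.11), and the gene that fell was *Fcna*, ficolin A (-0.44, SE 0.10, edgeR adjusted p = 0.0185). Of 14 niche signals and lineage factors, 4 rose and 1 fell. *Spi1* (0.96, SE 0.14) and *Irf8* (0.93, SE 0.13), transcription factors of myeloid cells, had the largest rises, and *Bmp10*, a ligand made in the liver by stellate cells, fell (-0.74, SE 0.21, edgeR adjusted p = 0.0393).

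Feeding SC-435 to female KO mice lowered 7 of the 10 genes and raised none beyond the test. The share of all 16332 genes called lower was 9.23% and higher 8.56%, and the median log2 fold change of the 10 genes was -0.77, against -0.02 over all genes tested. *Cd5l* fell from 146 to 216 CPM on chow to 65.6, 67.5, 93.8 and 110 CPM on SC-435, without overlap (log2 fold change -1.05, SE 0.18, edgeR adjusted p = 0.00657). *Adgre1* fell to 17.7, 18, 23.9 and 32.9 CPM (-0.95, SE 0.20, edgeR adjusted p = 0.0125) and *Csf1r* to 55.2, 57.4, 65.7 and 88.0 CPM (-0.83, SE 0.17, edgeR adjusted p = 0.0119), both also without overlap.

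*Clec4f*, which had not passed against WT, fell from 123, 172, 191 and 174 CPM on chow to 90.01, 92.5, 105 and 132 CPM on SC-435 (log2 fold change -0.65, SE 0.16, edgeR adjusted p = 0.0197). *Vsig4* (-0.71, adjusted p = 0.0281), *Marco* (-1.10, adjusted p = 0.0476) and *Folr2* (-0.69, adjusted p = 0.0491) also passed the edgeR test, with groups that overlapped. In each of these 4 genes SC-435 replicate 4 was the highest treated mouse. The count of 7 went down to 3 without chow replicate 2 or without SC-435 replicates 1, 2 or 3, and *Cd5l*, *Adgre1* and *Csf1r* were the 3 that passed in all of these fits.

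*Timd4* fell by 0.47 on the log2 scale without passing (SE 0.20, edgeR adjusted p = 0.141), at 4.72, 5.15, 6.40 and 8.64 CPM. *C6* was at 34.0, 19.9, 29.0 and 47.3 CPM on SC-435 (log2 fold change -1.18, SE 0.41, edgeR adjusted p = 0.0720), and voom called all 10 genes in this comparison. *Cd163* was again the exception in direction, at 11.7, 9.53, 13.2 and 19.5 CPM on SC-435 against 1.95 to 10.3 CPM on chow. The single chow mouse at 10.3 CPM made the groups overlap, and the log2 fold change of 1.15 (SE 0.40) did not pass (edgeR adjusted p = 0.0735). Without that mouse it passed (1.53, edgeR adjusted p = 0.0116), and it also passed with voom (adjusted p = 0.0143), with the 16 female libraries in 1 fit (adjusted p = 0.0301) and with no filter on low counts (adjusted p = 0.0320).

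Under SC-435 the macrophage background fell too. Of 12 general macrophage genes 11 were lower, with a median log2 fold change of -1.02 and sums from 321 to 464 CPM, and of 12 monocyte-derived and lipid-associated genes 10 were lower and 1, *Fabp5*, was higher, with sums from 73.6 to 104 CPM. Among the other Kupffer cell genes 6 of 11 fell, led by *Spic* (-0.93, SE 0.21) and the iron exporter *Slc40a1* (-0.85, SE 0.12), and among niche signals and lineage factors 4 of 14 fell and 1 rose. *Spi1* fell by 1.14 on the log2 scale and *Irf8* by 0.85, while *Bmp10* rose (1.03, SE 0.15, edgeR adjusted p = 0.00328). What share of the fall in the resident genes went with those cells was not tested. This comparison and that of KO with WT on chow share the same 4 female KO mice on chow, so their opposite signs are not independent. Of all calls under SC-435 48.11% were higher with TMM scaling and 20.51% with scaling by total counts.

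**Figure D2:**
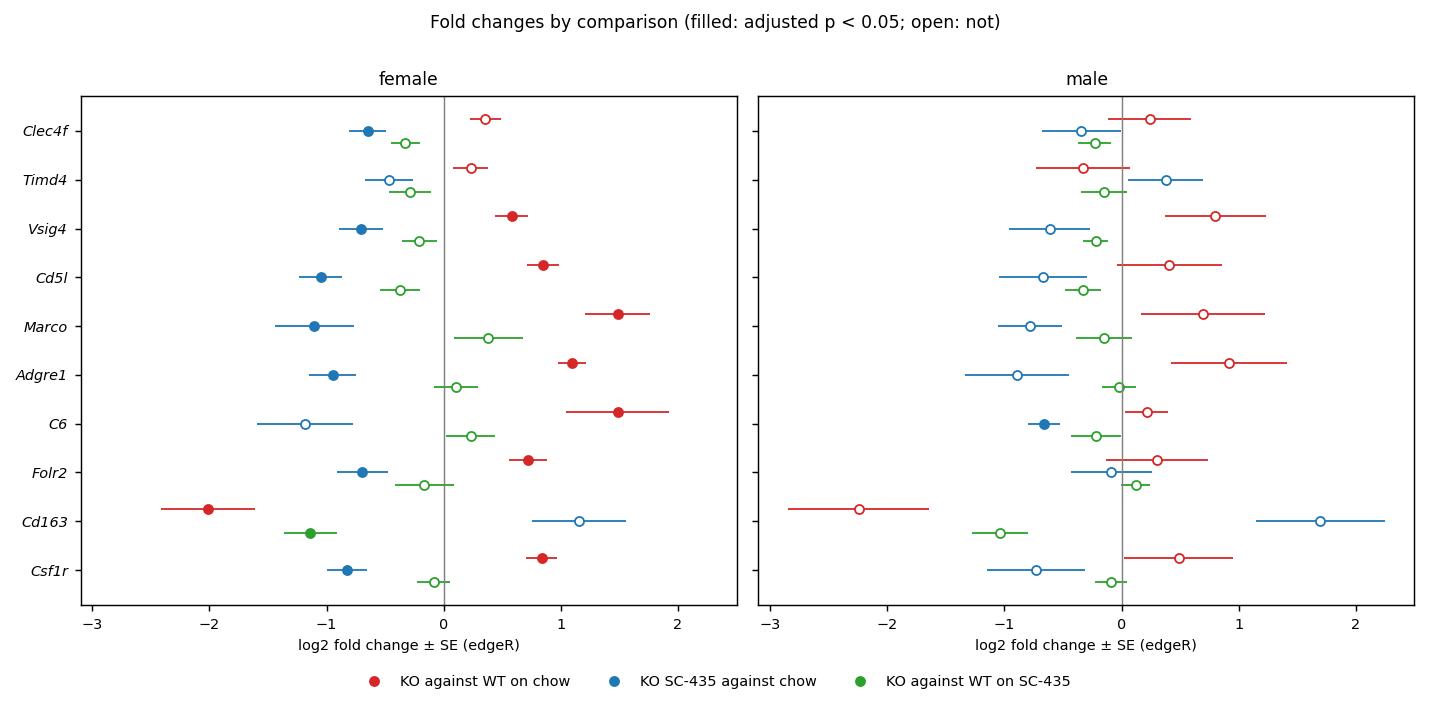
Log2 fold changes with standard errors for the 10 genes in females (left) and males (right), for KO against WT on chow (red), SC-435 against chow in KO mice (blue) and KO against WT on SC-435 (green), with filled points for an edgeR adjusted p under 0.05. In females 8 of the 10 red points and 7 of the 10 blue points are filled, and in males 0 red points and only *C6* among the blue points, with wider bars.

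With both genotypes on SC-435, *Cd163* was the only 1 of the 10 genes that differed between KO and WT females by the edgeR test. Its level was 39.3, 30.1, 28.6 and 21.1 CPM in WT and 11.7, 9.53, 13.2 and 19.5 CPM in KO mice, without overlap (log2 fold change -1.14, SE 0.23, edgeR adjusted p = 0.0128). In this comparison 6.23% of 15869 genes were called higher and 4.69% lower. The other 9 genes had log2 fold changes between -0.38 (*Cd5l*, SE 0.17) and 0.38 (*Marco*, SE 0.30). Without SC-435 KO replicate 4, *Clec4f* (-0.46, adjusted p = 0.0262) and *Vsig4* (-0.41, adjusted p = 0.0172) also passed, and with the 16 female libraries in 1 fit *Cd163* did not (adjusted p = 0.0681). *Fcna* (-0.69) and *Slc40a1* (-0.49) were lower among the 11 other Kupffer cell genes, and of the general macrophage genes 0 of 12 were called. Of the 11 monocyte-derived and lipid-associated genes tested 4 were higher in KO, led by *Cx3cr1* (1.98) and *Fabp5* (1.33). The sums of that list ran from 38.8 to 60.3 CPM in WT and from 73.6 to 104 CPM in KO. *Fabp5* weighs heavily in such sums. In WT females on chow it averaged 30.2 CPM, where the list summed to 56.3 CPM on average. The separated sums therefore do not show a rise of the list as a whole, and the part of *Fabp5* in them was not tested. All 6 cholangiocyte genes tested were higher, led by *Epcam* (1.89) and *Spp1* (1.79), as were 3 of 7 stellate cell genes. The part of these cells in the difference of *Cd163* was not tested.

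SC-435 in WT females left the 10 genes within 0.29 of 0 on the log2 scale. None was called, and 0 of 10 had an unadjusted p under 0.05 (edgeR), against 2.4% of 15739 genes called higher and 1.88% lower. DESeq2 and voom called 0 of the 10 as well. The largest difference was that of *Cd163* (0.29, SE 0.22), and the smallest standard errors were those of *Csf1r* (0.10, SE 0.08), *Vsig4* (0.09, SE 0.08) and *Clec4f* (0.04, SE 0.09).

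Whether SC-435 acted differently on the genes in KO and WT females was tested as an interaction in 1 fit of 16 libraries. Its effect in KO mice was lower than in WT mice for *Cd5l* (difference of log2 fold changes -1.24, SE 0.24, edgeR adjusted p = 0.0186), *Csf1r* (-0.93, SE 0.20, adjusted p = 0.0278) and *Adgre1* (-1.005, SE 0.24, adjusted p = 0.0403). Over all 16882 genes tested, 1.78% were called lower and 0.859% higher. For *Vsig4* (-0.80, adjusted p = 0.0603) and *Clec4f* (-0.70, adjusted p = 0.0640) the edgeR test was narrowly missed, and 9 of the 10 genes had an unadjusted p under 0.05. In the same fit 11 of the 12 general macrophage genes were called lower (median -1.16), led by *Cd14* (-1.91) and *Lyz2* (-1.55), as were 7 of the 12 monocyte-derived and lipid-associated genes tested, led by *Gpnmb* (-6.23) and *Mmp12* (-4.15). Their part in the result of the resident genes was not tested. In WT females *Gpnmb* averaged 0.116 CPM on chow and 0.154 CPM on SC-435, and *Mmp12* 0.305 and 0.248 CPM, all near the floor. Leaving out 1 library moved the number of resident genes called between 0 (without SC-435 KO replicate 2) and 5 (without KO chow replicates 1 or 4, or SC-435 KO replicate 4). *Cd5l* passed in 15 of these 16 fits, *Csf1r* in 7 and *Adgre1* in 3. The number fell to 1 without WT chow replicates 2 or 3, KO chow replicates 2 or 3, WT SC-435 replicates 1 or 3, or KO SC-435 replicates 1 or 3.

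In males on chow none of the 10 genes passed between KO and WT mice, and the KO mice spread widely. Of 15862 genes tested 0.933% were called higher in KO and 0.151% lower by edgeR, with 0 of the 10 genes called, 1 with an unadjusted p under 0.05 and a lowest adjusted p of 0.123. That gene was *Cd163*, which was at 9.98, 24.4, 25.7 and 26.6 CPM in WT and 1.38, 3.55, 2.66 and 10.2 CPM in KO males. The groups overlapped only through the lowest WT mouse (replicate 1) and the highest KO mouse (replicate 4), the libraries that stood apart, and the log2 fold change was -2.24 (SE 0.60). Without WT replicate 1 it passed (-2.49, edgeR adjusted p = 0.0376), without KO replicate 4 it was -3.09 (adjusted p = 0.0548), and without both it was -3.32 (adjusted p = 0.00164). It also passed with DESeq2 (adjusted p = 0.00212) and voom (adjusted p = 0.000286), where it was the only 1 of the 10 genes called. The 5 erythroid genes had a median log2 fold change of -3.11 in this comparison, with none called. Their sums ran from 130 to 677 CPM in WT (SD 266) and from 76.2 to 123 CPM in KO males (SD 24.7). Their part in the result was not tested. The fit without both libraries was chosen after seeing the data.

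Of the 8 positive fold changes in male KO mice, 7 became smaller or changed sign without KO replicate 4. *Adgre1* was at 16, 20.7, 29.2 and 78.1 CPM in KO and 21.8, 14.1, 14.8 and 28.0 CPM in WT males, and its log2 fold change went from 0.92 (SE 0.50) to 0.17 without that mouse. *Csf1r* was at 48.5, 55.5, 75.5 and 203 CPM in KO and 48.4 to 95.0 CPM in WT males, and its value went from 0.49 to -0.22. *Clec4f* was at 79.9, 101, 90.1 and 238 CPM in KO and 94.3 to 139 CPM in WT males, with a change from 0.24 to -0.29, and *Cd5l* went from 0.41 to -0.21. *Folr2* went from 0.30 to -0.25, *Vsig4* from 0.80 to 0.26 and *Marco* from 0.70 to 0.42, while *C6* stayed at 0.21. None of these passed the edgeR test with or without the mouse. *Timd4* was at 3.25, 5.0, 2.74 and 7.71 CPM in KO and 4.21, 4.73, 5.4 and 9.70 CPM in WT males (log2 fold change -0.33, SE 0.40, edgeR adjusted p = 0.729). The summed general macrophage genes ran from 381 to 1380 CPM in male KO and from 243 to 437 CPM in male WT mice, the highest sum being that of 1 mouse.

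SC-435 in KO males lowered *C6* by 0.66 on the log2 scale (SE 0.13, edgeR adjusted p = 0.0139), from 432, 413, 423 and 399 CPM on chow to 269, 335, 217 and 229 CPM, without overlap. It was the only 1 of the 10 genes called, among 8.36% of 15984 genes called lower and 8.8% higher. The call was lost without SC-435 replicate 4 (adjusted p = 0.0523) and with the 16 male libraries in 1 fit (adjusted p = 0.0637). *Cd163* was at 7.33, 14.5, 18.3 and 17.7 CPM on SC-435, above 3 of the 4 chow mice (log2 fold change 1.69, SE 0.55, edgeR adjusted p = 0.0616), and without chow replicate 4 it passed (2.52, adjusted p = 0.00396). *Marco* did not pass (-0.78, SE 0.28, edgeR adjusted p = 0.0770), and without chow replicate 3 it passed (-0.97, adjusted p = 0.0423). The log2 fold changes of *Adgre1* (-0.89), *Csf1r* (-0.73), *Cd5l* (-0.67) and *Vsig4* (-0.61) did not pass and were -0.17, -0.05, -0.09 and -0.09 without chow replicate 4. Those of *Clec4f* (-0.34), *Folr2* (-0.09) and *Timd4* (0.38) were 0.15, 0.44 and 0.73 without it. In males too, this comparison and that of KO with WT on chow share the 4 KO mice on chow. Of the monocyte-derived and lipid-associated genes 11 of 12 tested fell, and of the general macrophage genes 3 of 12, with sums between 305 and 422 CPM on SC-435.

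In the remaining male comparisons edgeR called none of the 10 genes. SC-435 in WT males gave 0.0131% of 15211 genes higher and 0.0263% lower, with 0 of 10 genes at an unadjusted p under 0.05, 0 called by DESeq2 or voom, and log2 fold changes from -0.27 (*C6*) to 0.46 (*Cd163*). Between KO and WT males on SC-435 0.013% of 15434 genes were higher and 0.0194% lower, and *Cd163* alone had an unadjusted p under 0.05. It was at 32.7, 28.6, 31.4 and 25.8 CPM in WT and 7.33, 14.5, 18.3 and 17.7 CPM in KO mice, without overlap (log2 fold change -1.04, SE 0.24, edgeR adjusted p = 0.239), and DESeq2 called it (adjusted p = 0.00375) while voom called 0 of the 10. In males a difference by genotype in the effect of SC-435 was called for 0 of the 10 genes by edgeR, DESeq2 or voom. By edgeR 0.0121% of 16555 genes were called higher and 0.0785% lower, and 1 of the 10 (*Vsig4*, -0.99, SE 0.46) had an unadjusted p under 0.05. *Adgre1* had a difference of -0.91 (SE 0.54) in males, where its SE in females was 0.24, so a male difference could be missed.

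By edgeR the sexes differed in 1 of the genes. *C6* was at 17.5 to 44.0 CPM in WT females and 290 to 444 CPM in WT males on chow, a log2 fold change of -3.81 (SE 0.35, edgeR adjusted p = 0.000756), where 0.747% of 15525 genes were called higher in females and 0.747% lower. Every male of every group had more *C6* than every female. The other 9 genes had log2 fold changes between -0.13 (*Cd5l*, SE 0.27) and 0.59 (*Vsig4*, SE 0.27). *Vsig4* did not overlap between the sexes (27.0 to 29.9 CPM in WT females, 10.3 to 26.9 CPM in WT males), and voom called it (0.47, adjusted p = 0.0166) and *Clec4f* (0.31, adjusted p = 0.0206) as well. The lowest male value of *Vsig4* was that of replicate 1. Although 8 genes were called in KO females and 0 in KO males on chow, the difference between these effects was itself not detectable. As an interaction over 17026 genes, of which 0.0117% were higher and 0.0117% lower, edgeR, DESeq2 and voom called 0 of the 10, and 1 (*C6*, difference 1.31, SE 0.52, edgeR adjusted p = 0.674) had an unadjusted p under 0.05. For *Cd163* the difference between the sexes was 0.28 (SE 0.74). The sex difference in the effect of SC-435 in KO mice was called for 0 of the 10 by each of the same tools, with 0.0996% of 17069 genes higher and 0.111% lower, and 1 (*Timd4*, -0.87, SE 0.40) at an unadjusted p under 0.05.

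Set against the general macrophage genes of the same library, most resident genes were lower in KO than in WT mice on chow. The measure is the log2 CPM of a gene minus the mean log2 CPM of the 12 general macrophage genes, and it is given as values without a test. In females *Clec4f* was at 2.89 ± 0.07 in WT and 2.06 ± 0.39 in KO mice, *Timd4* at -1.23 ± 0.10 and -2.19 ± 0.45, and *Cd163* 3.36 lower in KO, all without overlap. *Cd5l* (-0.34) and *Csf1r* (-0.36) were also separated, and *Vsig4* (-0.62), *Folr2* (-0.47), *Adgre1* (-0.10), *Marco* (0.31) and *C6* (0.20) were not. Most genes of the liver did the same: 71.3% of all 16205 genes tested were separated in the same direction, against 5 of the 10, so the count of separated genes is not a result about this set.

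In males the same values were -0.99 for *Clec4f*, -1.45 for *Timd4*, -0.80 for *Cd5l*, -0.90 for *Folr2*, -0.81 for *Csf1r* and -3.60 for *Cd163*, each without overlap, so 6 of the 10 genes were separated against 27.2% of all 15862 genes. On this scale KO replicate 4 was the highest of its group for 3 genes, *Cd5l*, *Adgre1* and *Csf1r*, and the lowest for *C6*. On SC-435 the values of KO mice differed from those on chow gene by gene. Male *Timd4* was at -1.41 in WT on chow, -2.86 in KO on chow and -1.42 in KO on SC-435, and male *Folr2* at -2.54, -3.44 and -2.38. Female *Cd5l* was at 2.48, 2.15 and 2.17 in the same order. *Cd163* was higher by 2.41 in females and 2.97 in males than on chow, and *Csf1r* by 0.26 and 0.48, without overlap in either sex. In males *Clec4f* (0.76), *Timd4* (1.44), *Vsig4* (0.53), *Cd5l* (0.48) and *Folr2* (1.06) were separated as well, which makes 7 of the 10 against 37.4% of all 15984 genes, while in females it was 2 of the 10 against 73.2% of 16332 genes.

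The values changed with the reference. Against *C1qa*, *C1qb* and *C1qc* alone, complement genes that resident macrophages express strongly, the female difference between KO and WT on chow was -0.52 for *Clec4f*, -0.64 for *Timd4*, -0.02 for *Cd5l*, -0.05 for *Csf1r* and -3.04 for *Cd163*. In males it was -0.37 for *Clec4f*, -0.83 for *Timd4* and -2.98 for *Cd163*.

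**Figure D3:**
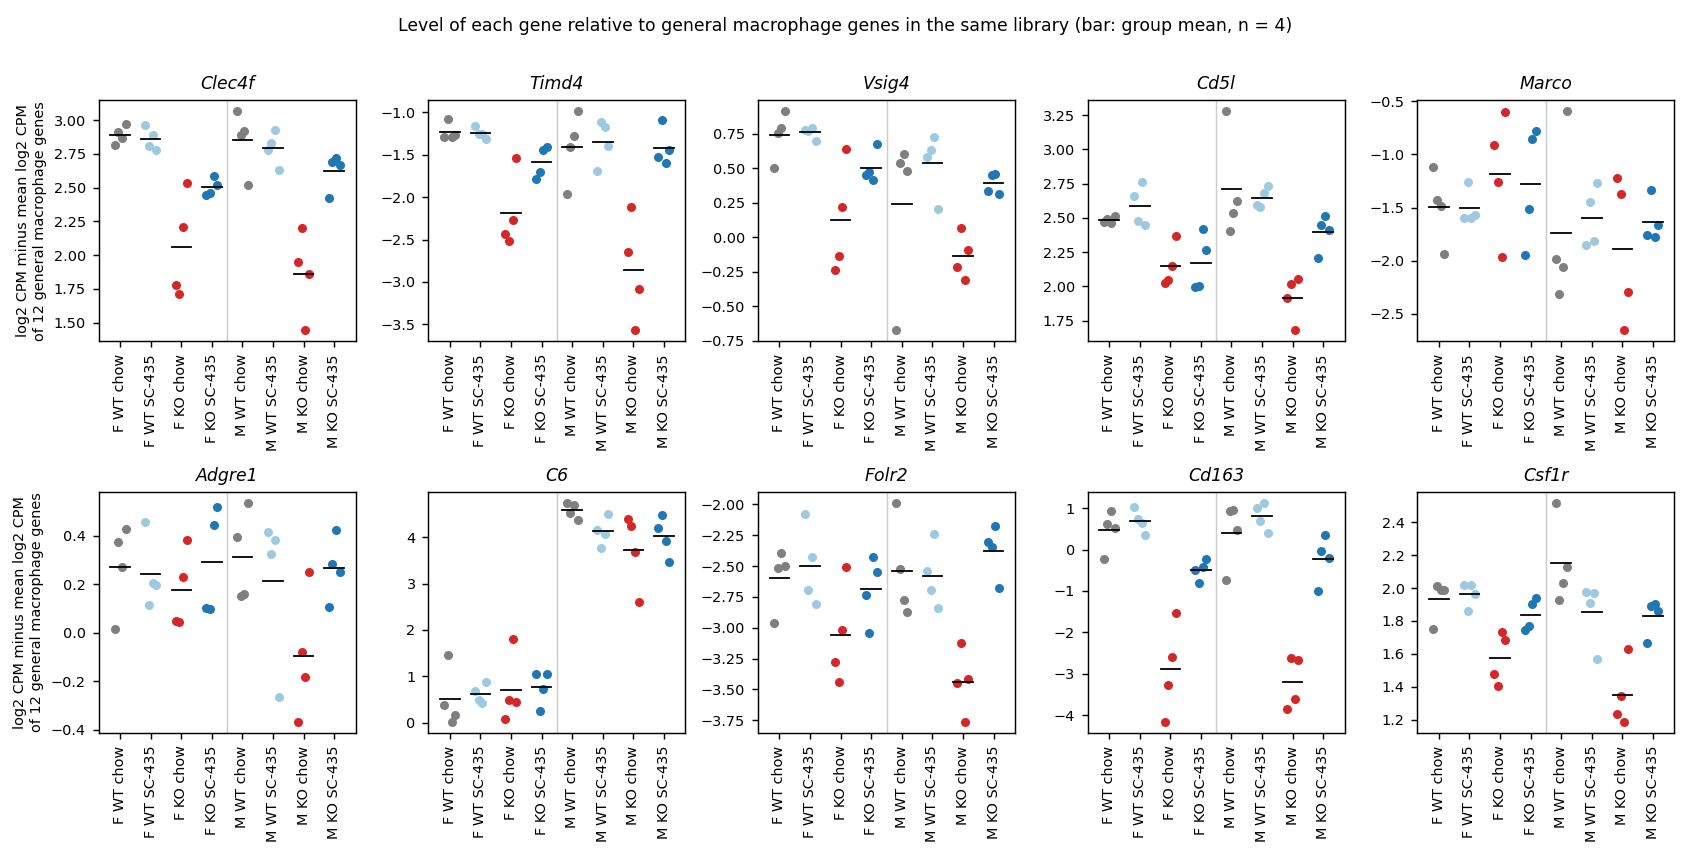
Log2 CPM of each gene minus the mean log2 CPM of 12 general macrophage genes in the same library, with a point per mouse and a bar for the group mean (F, female; M, male). KO mice on chow (red) lie below WT mice (grey) in both sexes for *Clec4f*, *Timd4*, *Cd5l*, *Csf1r* and *Cd163*, and *Cd163* shows the largest distance, 3.36 in females and 3.60 in males.

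Mice of 1 group that were high in 1 resident gene tended to be high in the others. Over the 32 libraries, with each group's mean removed, the 45 pairs of the 10 genes had Pearson correlations from 0.06 to 0.96, with a median of 0.57. The points share their library, so its depth and scaling enter both values of a pair. *Adgre1* and *Csf1r* were the closest pair (r = 0.96), and *Csf1r* was also close to *Cd5l* (r = 0.94) and *Clec4f* (r = 0.91). *Timd4* followed *Vsig4* and *Marco* (r = 0.77 each). *Cd163*, although it went against the other genes between KO and WT mice, varied with *Vsig4* (r = 0.84) and *Clec4f* (r = 0.66) between mice of a group. *C6* stood aside, with a median of 0.18 and at most 0.27. Several of these values depended on male WT replicate 1 on chow, 1 of the pair of libraries that stood apart. Without it *Vsig4* went from 0.66 to 0.94 with *Csf1r*, from 0.68 to 0.93 with *Clec4f*, from 0.53 to 0.88 with *Cd5l* and from 0.49 to 0.86 with *Folr2*. *Cd163* went from 0.41 to 0.64 with *Cd5l* and from 0.55 to 0.81 with *Folr2*. Male KO replicate 4 on chow, the other library of that pair, was kept in all of these values. It was the highest of its group for *Adgre1*, *Clec4f*, *Csf1r*, *Cd5l* and *Folr2*, with *Clec4f* at 238 CPM (next mouse 101). How far the correlations rest on that mouse was not tested.

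**Figure D4:**
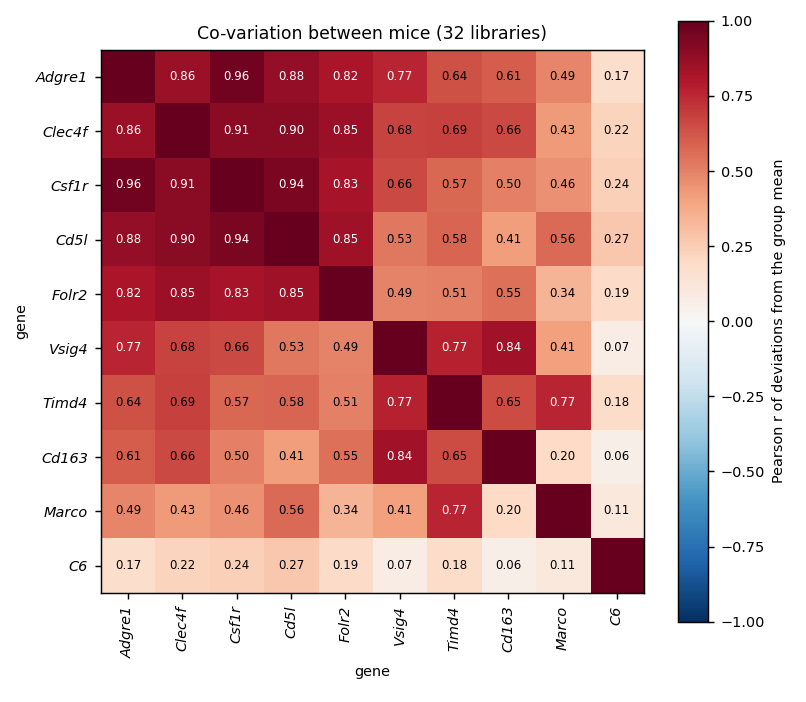
Pearson correlation between the 10 genes over 32 libraries after removal of each group's mean log2 CPM, with genes ordered by their median correlation. *Adgre1*, *Clec4f*, *Csf1r*, *Cd5l* and *Folr2* form a block with values from 0.82 to 0.96, which *Vsig4* joins without male WT replicate 1 on chow (not plotted), and the row of *C6* stays at 0.27 and below. Male KO replicate 4 on chow is included throughout.

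Across all 32 libraries and without removal of group means, the 5 genes outside the set most like *Clec4f* among 12677 genes (mean count 50 or more) were *Cfp* (properdin, r = 0.90), *Sdc3* (r = 0.90), *Ptgs1* (r = 0.87), *Hk3* (r = 0.86) and *Nfam1* (r = 0.85). Those most like *Timd4* were *Cd300e* (r = 0.82), *Gbp2b* (r = 0.76), *Gbp5* (r = 0.75), *Pcolce2* (r = 0.74) and *Slc31a2* (r = 0.72). Those most like *C6* were *Mup20* (r = 0.977), *C9* (r = 0.951), *Gstp-ps* (r = 0.947), *Cyp4a12b* (r = 0.945) and *Gstp1* (r = 0.942). The sex difference of *C6* enters these values. The part of hepatocytes in the level of *C6* and in its changes was not tested. Among the 100 genes most like *Clec4f* were 6 of the other 9 resident genes, *Timd4*, *Vsig4*, *Cd5l*, *Adgre1*, *Folr2* and *Csf1r*, and among those most like *Vsig4*, *Cd163* and *C6* there were 0.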

How the data were processed

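Polyadenylated liver RNA of 32 mice was sequenced. Per the submitters' processing notes, reads were aligned to mm10 with HISAT2 2.0.5 and counted with featureCounts 1.5.0-p3. The authors deposited raw counts per gene, analysed here, and FPKM values per gene, read only for a check. Deposited fold changes and p-values of DESeq2 1.20.0 were not used. Groups followed the labels. Differences were tested with edgeR 4.0.16 in R 4.3.3 (filterByExpr, TMM scaling, quasi-likelihood test, Benjamini-Hochberg adjustment over all genes tested, threshold 0.05) in 9 comparisons of 2 groups and 4 interactions. DESeq2 1.42.0, limma 3.58.1 (voom with quality weights), other scalings and filters and fits without 1 library were alternatives. The steps were tested on simulated data. Log2 CPM used a prior count of 2. In each comparison the 10 genes are named or covered by a range or a count. Where called genes of another list are picked out, they are up to 2 with the largest rise and 2 with the largest fall. Not every list is described in every comparison, so called genes of other lists can be missing. The genes and lists were chosen with earlier results of these data known. The labels number the mice within groups, and totals of 36476021 to 44771350 counts limit counting error only.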

Additional observations from a re-analysis of the deposited data

Results flagged for a closer look

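In 7 of 80 groups of 4 mice (10 genes in 8 groups) 1 mouse stood far from the others of its group. The limit used is passed by about 1 in 20 groups of independent, normally distributed values. The 10 genes share their libraries and vary together, so 7 of 80 cannot be set against that rate. Male KO replicate 4 on chow accounted for 3 of the 7: *Clec4f* at 238 CPM (next mouse 101), *Cd5l* at 272 CPM (next 106) and *Folr2* at 6.12 CPM (next 2.46). *Vsig4* was at 36.6 CPM in female KO replicate 4 on SC-435 (next 23.4) and at 30.4 CPM in female KO replicate 1 on chow, below the other 3 mice (next 46.8). *Marco* was at 12.7 CPM in male WT replicate 4 on chow (next 4.13). *Cd163* was at 9.98 CPM in male WT replicate 1 on chow, below the other 3 (next 24.4).

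The effect of SC-435 was lower in KO than in WT females for *Cd5l* (difference of log2 fold changes -1.24), *Csf1r* (-0.93) and *Adgre1* (-1.005) by the edgeR interaction test. Of 16 fits that each left out 1 library, *Cd5l* passed in 15, *Csf1r* in 7 and *Adgre1* in 3. In the same test 11 of 12 general macrophage genes were lower, among them *Cd14* (-1.91) and *Lyz2* (-1.55), and their part in the result was not tested.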

How the results depend on the processing

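Among the alternative fold changes of the 10 genes, 2263 kept direction and side of the threshold, 60 lost and 47 gained a call and 0 reversed. Leaving out 1 library moved the number of the 10 genes called between 6 and 9 (8 with all libraries) for female KO against WT on chow, 3 and 8 (7) for SC-435 in female KO mice, 1 and 3 (1) for female KO against WT on SC-435, 0 and 1 (0) for male KO against WT on chow, 0 and 2 (1) for SC-435 in male KO mice, and 0 and 5 (3) for the genotype difference in females. With DESeq2 the number was 1 for male KO against WT on chow, 3 for SC-435 in male KO mice, 1 for male KO against WT on SC-435 and 5 for the genotype difference in females. With voom it was 1, 2 and 6 for the first, second and last of these, and 3 for female against male WT. With the 16 libraries of a sex in 1 fit it was 0 for female KO against WT on SC-435 and 1 for male KO against WT on chow, which was also 1 without both male libraries that stood apart. Scaling by total counts gave 5 for the genotype difference in females, and no filter on low counts gave 2 for SC-435 in male KO mice. The cause was not tested.

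The replicate numbers did not pair the mice (correlations of deviations from -0.148 to 0.332, in 0 comparisons above 0.1 for every pair). With a replicate block the number called was 7 for female KO against WT on chow, 2 for SC-435 in male KO mice and 1 for the genotype difference in females.

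Over all genes the number called moved by more than 1.5 times in every comparison: between 1201 and 4265 (2411 as reported) for female KO against WT on chow, 1287 and 4846 (2906) for SC-435 in female KO mice, 159 and 1420 (674) for SC-435 in female WT mice, 796 and 2411 (1732) for female KO against WT on SC-435, 10 and 2433 (172) for male KO against WT on chow, 985 and 4230 (2744) for SC-435 in male KO mice, 0 and 1593 (6) for SC-435 in male WT mice, 3 and 179 (5) for male KO against WT on SC-435, 117 and 2661 (232) for female against male WT, 0 and 554 (4) and 6 and 339 (36) for the sex differences in KO against WT and in SC-435, and 68 and 1881 (445) and 2 and 468 (15) for the genotype differences in females and males. Scaling by total counts moved the median of all genes on the log2 scale to 0.17 in female KO against WT on chow, -0.18 under SC-435 in female KO mice, 0.29 and -0.23 in the same male comparisons, 0.15 between the sexes, -0.12 for the sex difference in KO against WT, and -0.17 and -0.29 for the genotype differences. With it the share of calls that were higher went from 51.28% to 24.55% for SC-435 in male KO mice, from 50% to 61.29% between the sexes, from 33.33% to 100% of 6 and 1 calls for SC-435 in male WT mice, and from 32.58% to 11.51% and 13.33% to 0% for the genotype differences. Every call among the 10 genes had the same direction under these scalings.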
